A study of Mus musculus with 576 samples.

Results

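The 37 genes of the mouse mitochondrial genome were followed in single haematopoietic stem cells (HSCs), the marrow cells that renew the whole blood system. They were taken as every gene whose symbol starts with mt- among the 46078 genes counted, and they comprise 13 mRNAs, 2 rRNAs and 22 tRNAs. The cells were CD150+CD48-cKit+Sca1+ cells from the marrow of mouse femurs and tibias, a phenotype enriched for long-term HSCs, sorted singly into plate wells and sequenced as 1 library per cell. The 6 groups of 96 cells combined a treatment (a control not described further, or LPS, lipopolysaccharide, which comes from bacterial outer membranes and is sensed by innate immunity) with a class of a p27 marker (high, low or negative). The groups were therefore control p27 high, control p27 low, control p27 negative, LPS p27 high, LPS p27 low and LPS p27 negative. By the series title, p27 serves here to mark G0, in which cells rest and do not divide. The sources used here give no strain, age, sex, number of animals, construct behind the marker, LPS dose or time after LPS. Each group is therefore 1 sample, so differences between groups carry no test. Where 3 values follow each other for a treatment, they are in the order p27 high, low, negative.

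Cells with at least 50000 gene reads and under 50% mt- reads were used. That left 546 of 576 cells, with 84, 93 and 94 control and 93, 90 and 92 LPS cells. Of the 30 cells left out, 29 had too few reads and 1 had too large a share of mt- reads. The lowest cell kept had 52163 gene reads and the highest one removed for reads had 45966, and the highest mt- share kept was 26%. Median gene reads per cell ran from 224003 in control p27 low to 439918.5 in LPS p27 negative cells. Kit, the gene of the gate's cKit receptor, stood at 213 to 542 counts per 1000000 gene reads (CPM) in the 6 groups and Slamf1, the gene of CD150, at 53 to 106 CPM. The stem cell gene Procr had 228, 93.1 and 16.1 CPM in control cells, and Fgd5 was near 0 (0.3 CPM) in LPS p27 low cells. Cd79a, Cd3e and Il7r, markers of lymphoid cells, stayed at or under 0.53 CPM in every group.

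Mitochondrial DNA is a small circle that each cell carries in many copies. Both of its strands are copied as long precursors that are cut at the tRNAs lying between the other genes, which frees the mRNAs and rRNAs. The mRNAs encode core subunits of respiratory complexes I, III and IV and of ATP synthase, the rRNAs and tRNAs serve their translation inside the organelle, and all other mitochondrial proteins are encoded in the nucleus and imported. Quiescent HSCs are known for relying on glycolysis more than on respiration, and for turning respiration up on activation.

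Fragments of mitochondrial DNA also lie in nuclear chromosomes, and for a block of mt- mRNAs such a copy is nearly identical, so a read can match both places. The first 90 bases of mt-Co2 (ENSMUSG00000064354, subunit 2 of complex IV) show how alike the copies are in this stretch. They are given with the same stretch of its annotated pseudogenes Gm28661 on chromosome 1 and Gm13341 on chromosome 2. The sequences are GENCODE M21 transcripts in mm10, written 5′ to 3′, and capitals mark the bases that differ from mt-Co2.
mt-Co2, chrM:7013-7102, + strand: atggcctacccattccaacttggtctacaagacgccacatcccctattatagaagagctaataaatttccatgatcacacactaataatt
Gm28661, chr1:24615476-24615565, - strand: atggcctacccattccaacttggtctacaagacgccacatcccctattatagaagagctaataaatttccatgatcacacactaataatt
Gm13341, chr2:22587873-22587962, - strand: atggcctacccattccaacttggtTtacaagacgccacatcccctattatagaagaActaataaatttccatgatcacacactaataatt
Over this window Gm28661 has 0 mismatches and Gm13341 has the substitutions C25T and G57A, with positions counted from 1 at the 5′ end of the window and the base of mt-Co2 first. Gm28661 matches mt-Co2 without a mismatch over all of its 681 bases. Gm13341 is less alike as a whole. Laid along mt-Co2 without gaps it has 173 mismatches over 672 bases, and it shares 224 of the 635 stretches of 50 bases in mt-Co2.

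A chromosome 1 block from 24611535 to 24616197 on the minus strand holds 7 such pseudogenes in the order of the mitochondrial bases 6381 to 11042. They are Gm29216 (a copy of part of mt-Co1), Gm28661 (mt-Co2), Gm10925 (mt-Atp6), Gm28437 (mt-Co3), Gm28438 (mt-Nd3), Gm10222 (mt-Nd4l) and Gm28439 (part of mt-Nd4), and 5 of them carry no mismatch to their mitochondrial counterpart. To measure how much of each mt- transcript is unique, every stretch of 50 bases was looked up in all other annotated transcripts. The share found elsewhere was 100% for mt-Co2, 99.9% for mt-Co3, 99.5% for mt-Atp6, 98.8% for mt-Nd4l and 98.0% for mt-Nd3. It was 62.2% for mt-Nd4, 51.1% for mt-Co1, 8.19% for mt-Nd2, 7.61% for mt-Nd5 and 1.04% for mt-Rnr2, and 0 for mt-Rnr1, mt-Nd1, mt-Nd6, mt-Cytb and mt-Atp8. For mt-Atp8 no copy is annotated, although its gene lies between the stretches covered by Gm28661 and Gm10925.

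The 6 mRNAs inside this stretch had almost no reads in any group. Over all kept cells mt-Co2 held 1004 reads, mt-Atp8 268, mt-Atp6 3772, mt-Co3 1588, mt-Nd3 315 and mt-Nd4l 114. The other 7 mRNAs held from 65997 (mt-Nd6) to 1549345 reads (mt-Co1). For mt-Co2, mt-Atp6, mt-Co3, mt-Nd3 and mt-Nd4l the chromosome 1 copies held 524, 1783, 1899, 50 and 214 reads. No read is listed in the tables as aligned to more than 1 place, while read length and the treatment of such reads could not be learned from the labels. Whether reads of these mRNAs were dropped for matching in more than 1 place was not tested, so the low values say nothing about how much of these RNAs the cells held.

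**Figure D1:**
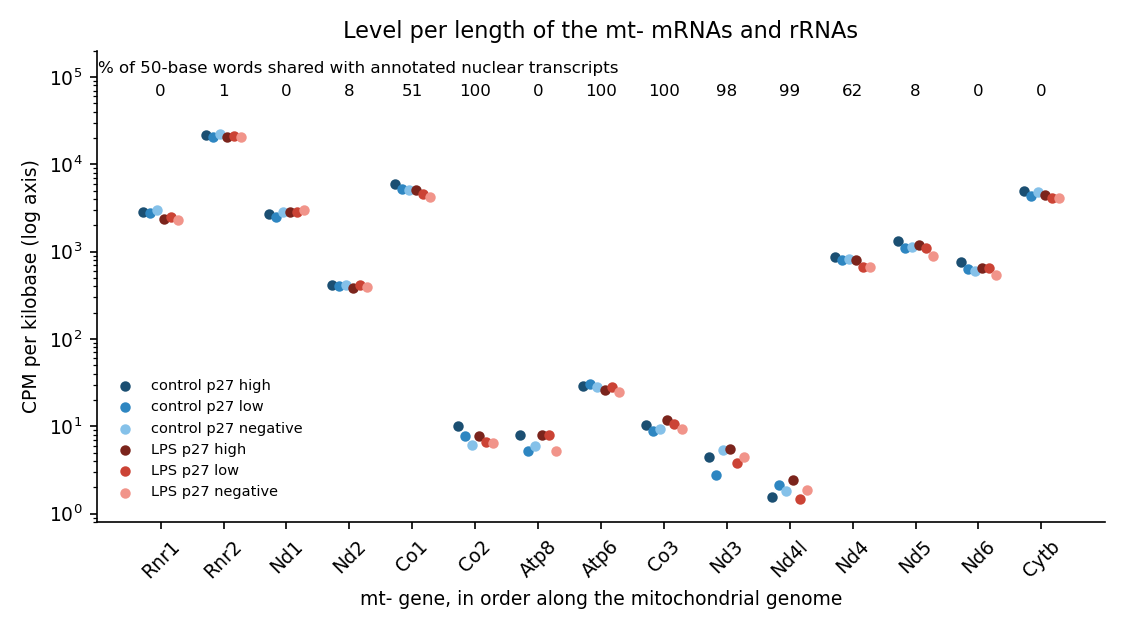
Level of each mt- mRNA and rRNA per kilobase of transcript (CPM per kilobase, log axis) in the 6 groups, 1 point per group, in the order of the genes along the mitochondrial genome, with the share of 50-base stretches found in other annotated transcripts above each gene. The 6 genes from mt-Co2 to mt-Nd4l lie between 1.45 and 30.2 CPM per kilobase and all others between 386 and 22312, and within each gene the 6 groups lie close together.

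The rRNAs made up 65.1% of all mt- reads, the mRNAs 34.9% and the tRNAs 0.0486%. mt-Rnr2 (ENSMUSG00000064339, chromosome M, 1094 to 2675), the RNA of the large mitochondrial ribosomal subunit, alone gave 60.6%. Per length it was also the most abundant mt- RNA, with 20482 to 22312 CPM per kilobase in the 6 groups. mt-Rnr1 (ENSMUSG00000064337, 70 to 1024), the RNA of the small subunit, had 2296 to 2968 CPM per kilobase. The library protocol cited in the labels primes on poly(A) tails, so levels of RNAs with and without a tail are not on one footing.

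In CPM, mt-Rnr2 stood at 34095, 32867 and 35298 in control cells, against at 32402, 33243 and 32431 after LPS. Its cells overlapped between all groups, since the lowest cell of each group lay between 18505 and 23256 CPM and the highest between 50078 and 180632 CPM. mt-Rnr1 had 2708, 2662 and 2835 CPM in control cells, against 2265, 2384 and 2193 CPM after LPS. Every LPS class was thus below every control class for mt-Rnr1, while single cells of both treatments covered 967 to 23912 CPM.

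Complex I, the entry point for electrons from NADH, has 7 mitochondrially encoded subunits, of which mt-Nd1, mt-Nd2, mt-Nd4, mt-Nd5 and mt-Nd6 had at least 100 CPM. mt-Nd1 (ENSMUSG00000064341, 2751 to 3707) had 2584, 2406 and 2726 CPM in control cells, against 2753, 2756 and 2859 CPM after LPS. Its median cell lay between 2378 and 2806 CPM, with single cells from 510 to 9314. mt-Nd5 (ENSMUSG00000064367, 11742 to 13565) had 2442, 2019 and 2083 CPM without LPS and 2162, 1995 and 1616 CPM with it. Control p27 high cells were the highest group for mt-Nd5 and LPS p27 negative cells the lowest, with median cells at 2340 and 1606 CPM and ranges over cells that overlap (951 to 5059 and 437 to 3128).

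mt-Nd6 (ENSMUSG00000064368, 13552 to 14070) is the only mt- mRNA copied from the other strand. It had 395, 333 and 315 CPM in control cells, against 337, 339 and 279 CPM after LPS, again highest in control p27 high and lowest in LPS p27 negative cells. Its end overlaps that of mt-Nd5 from 13552 to 13565, and the strand setting of the counts is not given, so reads of the pair may not be fully separated. mt-Nd4 (ENSMUSG00000064363, 10167 to 11544) had 1188, 1112 and 1147 CPM without LPS and 1109, 913 and 930 CPM with it. In pooled CPM, mt-Nd2 (ENSMUSG00000064345, 3914 to 4951) varied least of the 9 abundant mt- RNAs, from 401 to 429 CPM over the groups. It was not steady within the ranges of cell numbers described below. There its log2 folds ran from -0.76 to 0.34 for control p27 low against negative cells. For LPS against control p27 high cells they ran from -0.59 to 0.45. They kept the same sign in every range only for LPS p27 low against negative cells (0.00095 to 0.27). Per length mt-Nd1 had 6.17 to 7.68 times the reads of mt-Nd2, the next mRNA along the genome.

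mt-Cytb (ENSMUSG00000064370, 14145 to 15288) encodes the only mitochondrial subunit of complex III, which passes electrons on to cytochrome c. It stood at 5613, 4974 and 5492 CPM in control cells, against 5083, 4679 and 4722 CPM after LPS. mt-Co1 (ENSMUSG00000064351, 5328 to 6872), the catalytic subunit of complex IV that reduces oxygen, was the most abundant mRNA, with 4230 to 6008 CPM per kilobase against 4090 to 4906 for mt-Cytb. In CPM the control classes had 9283 (95% Poisson interval 9243 to 9324), 8123 and 7906 (7879 to 7933). The LPS classes had 7836 (7806 to 7866), 6978 and 6535 (6512 to 6558) CPM. Within each treatment mt-Co1 was thus highest in p27 high cells, and in each class it was lower under LPS. Such intervals hold counting error alone, and without molecular identifiers a read is not a molecule. The cells spread far more widely, with medians of 9205 and 8217 CPM in control p27 high and negative cells and ranges of 4996 to 18266 and 2555 to 14105.

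The 6 mRNAs with few reads followed no common order of groups. mt-Co2 had 6.95 (5.89 to 8.16), 5.29 and 4.18 CPM (3.58 to 4.85) in control cells, against 5.32, 4.54 and 4.43 CPM under LPS. mt-Co3 (ENSMUSG00000064358), subunit 3 of complex IV, had 7 to 9.25 CPM. For ATP synthase, mt-Atp6 (ENSMUSG00000064357) had 16.7 to 20.5 CPM and mt-Atp8 (ENSMUSG00000064356) 1.05 to 1.62 CPM. The complex I mRNAs mt-Nd3 (ENSMUSG00000064360) and mt-Nd4l (ENSMUSG00000065947) had 0.953 to 1.89 and 0.432 to 0.721 CPM. With every cell thinned to 50000 reads, mt-Co2 was seen in 20.2% of control p27 high (95% Clopper-Pearson interval 12.3 to 30.4) and 14.9% of control p27 negative cells (8.4 to 23.7). Without thinning those shares were 59.5% and 68.1%, the opposite order, and no order of groups is read from them.

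The tRNAs link the other genes and mark where precursors are cut. As mature RNAs they are short and have no poly(A) tail, and all 22 together had 24.1 to 32 CPM. The 3 with the most reads were mt-Tp (ENSMUSG00000064372, proline tRNA, 15356 to 15422) with 1505 reads, mt-Tl1 (ENSMUSG00000064340, a leucine tRNA, 2676 to 2750) with 753 and mt-Ts1 (ENSMUSG00000064352, a serine tRNA, 6870 to 6938) with 692. mt-Tp stood at 9.53, 6.90 and 7.41 CPM in control cells, against 7.69, 9.43 and 5.41 CPM after LPS. Reads were found for 19 of the 22, and mt-Tw, mt-Tk and mt-Tg had 0 reads over all kept cells, where 3 reads would be 0.0147 CPM. mt-Tk and mt-Tg lie inside the stretch with the chromosome 1 copy, and mt-Tw lies outside it. Also inside it are mt-Ts1 with its 692 reads, mt-Tr with 25 and mt-Td with 1.

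Taken as a whole, mitochondrially encoded RNA was a similar share of every group. It made up 5.88%, 5.50% and 5.83% of the summed gene reads in control cells, against 5.44%, 5.38% and 5.20% after LPS. The median cell had 6.13%, 5.52% and 5.56% in control cells, against 5.48%, 5.26% and 5.09% after LPS. The lowest cells ran from 3.11 to 3.94% and the highest from 8.66 to 26%, so all groups overlap. Above 10% lay 3 cells only, 1 each in control p27 low (26%), control p27 negative (23.2%) and LPS p27 low (19%). The control p27 negative one differed in make-up, with 77.9% of its mt- reads in mt-Rnr2 and 10.3% in mt-Rnr1.

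**Figure D2:**
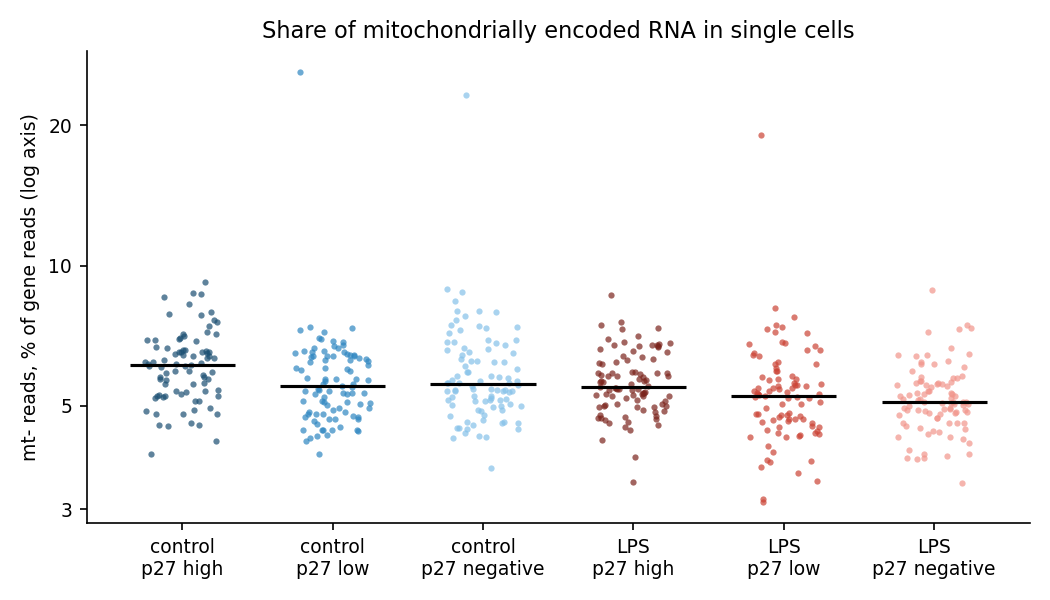
Share of each cell's gene reads that fell in the 37 mt- genes (%, log axis), 1 point per kept cell, with the median of each group as a black line. Medians run from 5.09% in LPS p27 negative to 6.13% in control p27 high cells, the clouds overlap in all 6 groups, and 3 cells lie above 10%.

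Control p27 high and p27 negative cells were compared to ask whether cells with most and with none of the G0 marker differ in mitochondrially encoded RNA. The total did not separate them, with 58806 against 58290 CPM, a log2 fold of 0.013. Cut by the cell number in the labels into 1 to 32, 33 to 64 and 65 to 96, ranges that are not replicates, the same fold ran from -0.22 to 0.16. Without the cell that held the most mt- reads in each group it was 0.067. Of the 37 genes 24 had at least 1 CPM in 1 of the groups and 0 of these differed by 2-fold or more, where 28% of all 14519 genes did. Abundant genes differ less, and of the 2862 genes with at least 100 CPM 13% passed 2-fold, against 0 of 9 mt- genes. In direction 18 of 24 were higher in p27 high cells, where 53% of all genes were. The median log2 fold was 0.060 beside 0.056 for all genes. RNAs near the floor of 1 CPM can enter such a count only through the group where they are high. The 24 also include tRNAs and mRNAs with few reads. No direction of mt- RNA is therefore read from these counts, here or in the comparisons below.

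Single genes differed in sign. mt-Nd6 was higher in p27 high cells with a log2 fold of 0.32 (0.20 to 0.51 over the ranges of cell numbers), mt-Co1 with 0.23 (0.11 to 0.37) and mt-Nd5 with 0.23 (0.13 to 0.32). mt-Nd1 was lower with -0.077 (-0.11 to -0.050). The rRNAs had -0.066 (mt-Rnr1, -0.47 to 0.25) and -0.050 (mt-Rnr2, -0.31 to 0.12), mt-Cytb 0.031 and mt-Nd4 0.050, all with ranges on both sides of 0, and the last 2 had -0.046 and -0.027 under TMM. Scaled by edgeR's TMM factors the folds of mt-Nd6, mt-Co1 and mt-Nd5 were 0.25, 0.15 and 0.15, but per read of the ERCC spike-ins they were -0.18, -0.27 and -0.27, so the direction of a single RNA depends on the scale.

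Between the same classes under LPS the mt- total was 54412 CPM in LPS p27 high against 52025 CPM in LPS p27 negative cells, a log2 fold of 0.065 (0.034 to 0.11 over the ranges). mt-Nd5 was higher in p27 high cells by 0.42 (0.27 to 0.49), mt-Nd6 by 0.27 (0.15 to 0.36), mt-Co1 by 0.26 (0.16 to 0.37), mt-Nd4 by 0.25 (0.20 to 0.30) and mt-Cytb by 0.11 (0.040 to 0.19) on the log2 scale. mt-Nd1 was lower by a log2 fold of -0.054 (-0.085 to -0.027) and mt-Rnr2 had -0.0013. Of 23 genes measured 0 passed 2-fold, where 25.5% of all genes and 10.9% of those with at least 100 CPM did, and 19 were higher, where 54.9% of all were. Per spike-in read all 9 abundant genes were lower in p27 high cells under LPS, for example mt-Co1 with -0.54.

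The p27 low cells lay between or beside the other classes. In control, p27 high exceeded p27 low cells with 58806 against 54978 CPM (log2 fold 0.097, 0.00016 to 0.21 over the ranges). Of 24 measured genes 22 were higher, where 51.2% of all genes were. Only 9 of these 24 had at least 100 CPM, and mt-Nd3 entered only through p27 high cells (1.57 against 0.953 CPM). mt-Nd5 (0.27), mt-Nd6 (0.25), mt-Co1 (0.19) and mt-Cytb (0.17) had the largest folds among the RNAs with at least 100 CPM, and all 4 were also positive under TMM and per spike-in read. Control p27 low against negative cells had a total log2 fold of -0.084 (-0.43 to 0.16, and -0.034 without the cell that held the most mt- reads in each group), with 5 of 23 genes higher beside 52.6% of all genes. Under LPS, p27 high against low cells had 0.017 (-0.038 to 0.080) and 14 of 23 genes higher beside 54.6%, with mt-Nd4 furthest apart among the RNAs with at least 100 CPM at 0.28 (0.15 to 0.43). LPS p27 low against negative cells had 0.048 (-0.016 to 0.15) and 13 of 22 genes higher beside 52.1%. Comparisons within a treatment share groups and are not independent. In these 4 comparisons 0 mt- genes passed 2-fold, beside 24.5%, 25.4%, 25.1% and 23.5% of all genes and 4.4%, 9.71%, 5.1% and 8.75% of those with at least 100 CPM.

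Cells of LPS marrow were set against control cells of the same class, as the series design compares HSCs with and without LPS. The mt- total was lower after LPS in each class, with log2 folds of -0.11 (p27 high, -0.16 to -0.046 over the ranges), -0.032 (low, -0.072 to 0.020) and -0.16 (negative, -0.41 to 0.015). Of the measured genes 7 of 24, 11 of 22 and 7 of 24 were higher after LPS, where 45%, 41.6% and 41% of all genes were, and 0 passed 2-fold beside 26.9%, 30.8% and 22.2% of all genes and 11.7%, 16.7% and 9.33% of those with at least 100 CPM. The medians of all genes were themselves negative (-0.093, -0.16 and -0.14). TMM scaling shifted the log2 folds of abundant genes by 0.13, 0.16 and 0.14 and with it the mt- total to 0.020, 0.13 and -0.026, while per spike-in read the total was higher after LPS in every class (1.34, 1.25 and 1.59), values that include control cells 1 to 32, which stood apart in their spike-in reads, and that in cells 33 to 96 were not borne out in each range. The direction of the total after LPS thus differed between scales.

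Against that common shift, the mt- RNAs did not move alike. mt-Rnr1 had log2 folds of -0.26 (-0.32 to -0.18), -0.16 (-0.30 to -0.00048) and -0.37 (-0.63 to -0.16) in the 3 classes and mt-Co1 -0.24 (-0.48 to -0.095), -0.22 (-0.59 to 0.010) and -0.27 (-0.56 to 0.11). In p27 negative cells mt-Nd5 (-0.37, -0.43 to -0.24), mt-Nd4 (-0.30, -0.45 to -0.15) and mt-Nd6 (-0.17, -0.33 to -0.086) were also lower in every range of cell numbers. mt-Nd1 had the opposite sign with 0.091, 0.20 and 0.069, although each of these had 1 range of cell numbers with a negative fold. Under TMM mt-Co1 had -0.11, -0.060 and -0.14, mt-Rnr1 -0.13, -0.00015 and -0.23 and mt-Nd1 0.22, 0.35 and 0.21. In p27 negative cells mt-Nd5, mt-Nd4 and mt-Nd6 then had -0.23, -0.16 and -0.035, and per spike-in read all of them were positive. The labels name no plate or library batch, and treatment and plate cannot be told apart.

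**Figure D3:**
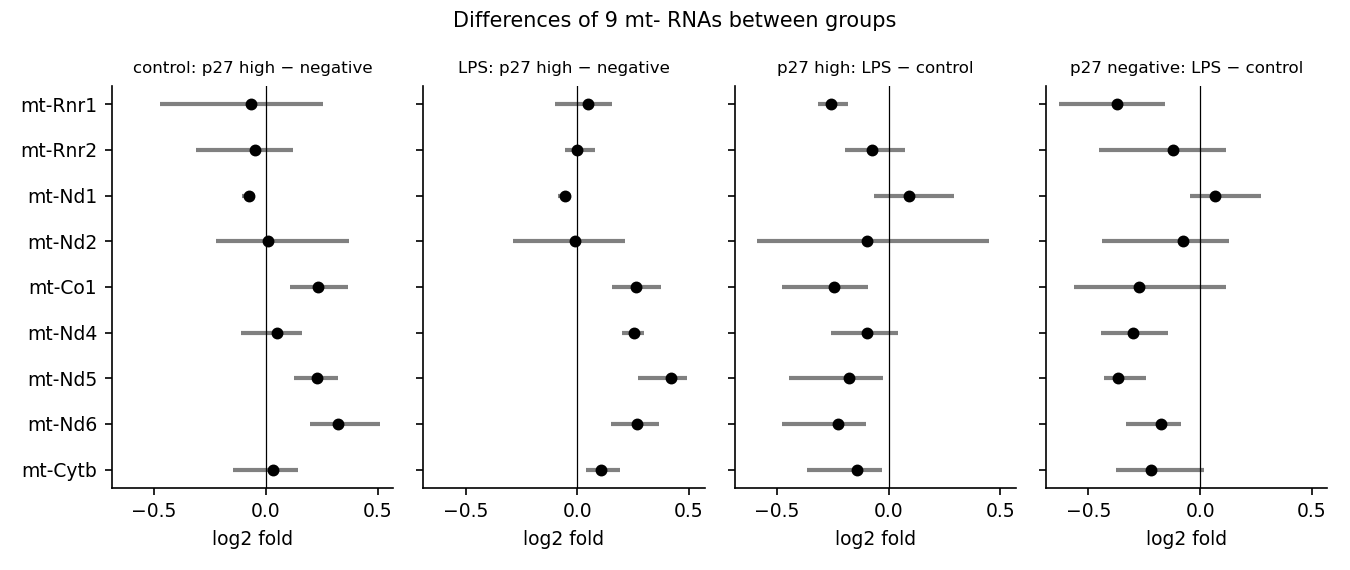
log2 fold of the 9 mt- RNAs with at least 100 CPM in 4 comparisons, as the point from all kept cells and a bar from the lowest to the highest of the 3 ranges of cell numbers. On the CPM scale drawn, mt-Nd6, mt-Co1 and mt-Nd5 lie right of 0 with their bars in both comparisons of p27 high with negative cells. Their folds per spike-in read, which are not drawn, were negative in both. mt-Rnr1 lies to the left of 0 in both comparisons of LPS with control.

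Ratios between mt- RNAs of the same cells do not depend on any scaling. Per length, mt-Co1 had 2.23, 2.09 and 1.80 times the reads of mt-Nd1 in control cells and 1.76, 1.57 and 1.42 times under LPS. Since 51.1% of mt-Co1 and 0 of mt-Nd1 is shared with other transcripts, the size of the ratio depends on how shared reads were counted, and only its differences between groups are described. The ratio was higher in p27 high than in p27 negative cells within each of the 3 ranges of cell numbers in control (2.36 and 1.85, 2.24 and 1.92, 2.10 and 1.58) and in LPS cells (1.77 and 1.29, 1.87 and 1.57, 1.61 and 1.41). It was also lower under LPS than in control in each class and range, the low class included (1.98 and 1.56, 2.37 and 1.55, 2.01 and 1.60). The mt-Nd1 to mt-Rnr1 ratio went the other way, with 0.952, 0.902 and 0.960 in control cells, against 1.21, 1.15 and 1.30 after LPS. It was higher under LPS in each class and range, although over the ranges of p27 negative cells it ran from 0.734 to 1.21 in control and from 1.14 to 1.41 under LPS. The rRNAs stood at 7.45 to 7.60 reads of mt-Rnr2 per read of mt-Rnr1 and length in control cells, against at 8.42 to 8.93 after LPS.

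The nuclear partners of the same complexes had a lower median fold than the mt- mRNAs, a gap that scaling leaves nearly the same. Of 72 nuclear subunits of complexes I, III and IV and ATP synthase, 8 were higher in control p27 high than in negative cells and their median log2 fold was -0.37 (ranges -0.55 to -0.34), while 6 of the 7 mt- mRNAs with at least 100 CPM were higher, with a median of 0.050 (-0.11 to 0.29), beside 53% of all genes. Under LPS 6 of 72 nuclear genes were higher, their median being -0.26 (-0.35 to -0.11), and 5 of 7 mt- mRNAs were higher with a median of 0.25 (0.15 to 0.21 in the single ranges), beside 54.9% of all genes. The side of 0 depends on the scale, and under TMM the medians were -0.44 and -0.027 in control and -0.35 and 0.17 in LPS cells. Of the 3 complexes with an abundant mt- mRNA the gap was widest for complex IV, where 0 of 11 nuclear genes were higher in control p27 high cells (median -0.61) beside mt-Co1 at 0.23, and 1 of 11 under LPS (median -0.35) beside 0.26. Cox6a1 had 127 CPM in control p27 high against 232 CPM in negative cells and Cox7a2 63.9 against 109, both structural subunits of that complex.

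In the other complexes 5 of 36 nuclear complex I genes (median -0.34), 1 of 9 of complex III (-0.27) and 2 of 16 of ATP synthase (-0.45) were higher in control p27 high cells, again beside 53% of all genes. Ndufb7, an accessory subunit of complex I, had 82.7 against 165 CPM, Uqcrq of complex III 74 against 143 and Atp5o, which joins the parts of ATP synthase, 97.4 against 186. Complex II, the only complex with no mitochondrial subunit, had 0 of 4 genes higher and a median of -0.12, led by Sdhb at 164 against 274 CPM. Between treatments the nuclear genes had medians of 0.042, -0.014 and -0.10 between LPS and control in the 3 classes beside -0.14, -0.017 and -0.22 for the 7 mRNAs, of opposite sign in p27 high cells only.

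**Figure D4:**
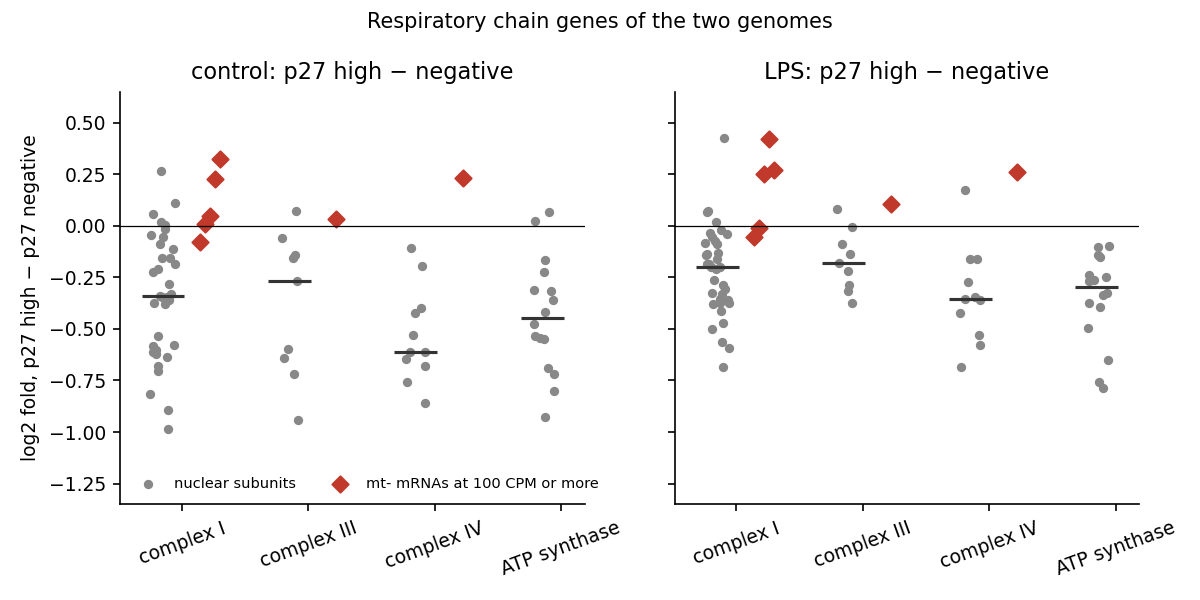
log2 fold between p27 high and p27 negative cells of nuclear subunits (grey points, median as a line) and of mt- mRNAs with at least 100 CPM (red diamonds) of 4 complexes, in control and in LPS cells. In complex IV 0 of 11 nuclear genes in control and 1 of 11 under LPS lie above 0 while mt-Co1 lies at 0.23 and 0.26, and no mt- mRNA of ATP synthase reaches 100 CPM.

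Genes that make and use mitochondrial RNA were followed as lists in the same comparison of control p27 high with negative cells, beside the 53% of all genes that were higher. Mitochondrial ribosomal proteins, which assemble on mt-Rnr1 and mt-Rnr2, were higher in 20 of 77 cases (median -0.33, -0.52 to -0.19 over the ranges), with Mrps18a at 38.6 against 102 CPM. Genes of protein import, channels and chaperones were higher in 3 of 17 (median -0.39), with the import pore gene Tomm40 at 75.5 against 130 CPM. Genes of mitochondrial DNA transcription and replication were higher in 14 of 21 (median 0.30, -0.044 to 0.28 in the single ranges), but Polrmt, the mitochondrial RNA polymerase, was lower with 34.3 against 68.2 CPM. RNA processing genes were higher in 17 of 27 (median 0.20, -0.13 to 0.54), among them Mrm1, which methylates mt-Rnr2, with 101 against 34.7 CPM. Mitophagy genes, which act in the removal of mitochondria, were higher in 7 of 11 (median 0.10) and under LPS in 10 of 11 (0.51) beside 54.9% of all genes, with Pink1 at 185 against 88.3 CPM in control. Lars2, the leucine tRNA synthetase of mitochondria, stayed between 102 and 131 CPM.

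Other markers differed in the same comparison. The 18 mitotic genes summed to 198 CPM in control p27 high and 5698 CPM in p27 negative cells, with 0 of 18 higher, and to 231 and 5158 CPM under LPS. Megakaryocyte and platelet markers were higher in 1 of 7 cases (341 against 1510.3 CPM in sum) and erythroid markers in 0 of 6 measured (80.7 against 675 CPM), 388 CPM of the latter sum being Car1. Under LPS megakaryocyte and platelet markers were higher in 1 of 7 and erythroid markers in 4 of 6 (70.4 against 153 CPM in sum). Myeloid markers were higher in 4 of 5 measured in control (1133 against 694 CPM in sum) and in 4 of 5 under LPS (806 against 460 CPM), with Prtn3 at 276 against 97.2 CPM and Lyz2 at 832 against 583 CPM in control. Stem cell markers were higher in 8 of 8 in control and 7 of 8 under LPS. Of all genes 53% were higher in p27 high than in p27 negative cells in control and 54.9% under LPS. A count of 4 of 6 is near these shares, and no direction is read from it. The part of these mitotic genes and markers in the differences of mt- RNAs was not tested. Across the cells of a group the mt- share had Spearman correlations between -0.10 and 0.13 with the share of reads in mitotic genes (84 to 94 cells per group, which share plate, depth and library preparation).

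Set against the spike-ins, the groups took another order. The ERCC spike-ins are synthetic RNAs added to the lysate, and reads per spike-in read follow the RNA of the whole cell as far as each well received the same amount. The median cell had 1.04, 1.02 and 1.43 mt- reads per spike-in read in control cells, against 1.42, 1.38 and 2.37 under LPS. Reads of all other genes per spike-in read followed with 15.1, 17.1 and 20.9 in control cells, against 23.5, 23.1 and 43.7 after LPS. Control cells numbered 1 to 32 stood apart, with 0.296, 0.289 and 0.402 mt- reads per spike-in read, where those numbered 33 to 96 had 1.06 to 2.19 in the medians of their ranges. Within the ranges 33 to 64 and 65 to 96, p27 negative cells were still above p27 high cells in control (2.19 and 1.06, 1.92 and 1.20), as in all ranges under LPS. In these 2 ranges LPS p27 high cells had 1.42 and 1.13 against 1.06 and 1.20 in control, in p27 low cells 1.39 and 1.24 against 1.11 and 1.30, and in p27 negative cells 2.11 and 2.37 against 2.19 and 1.92. Without cells 1 to 32 the higher value after LPS was thus seen in 1 of the 2 ranges of each class.

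**Figure D5:**
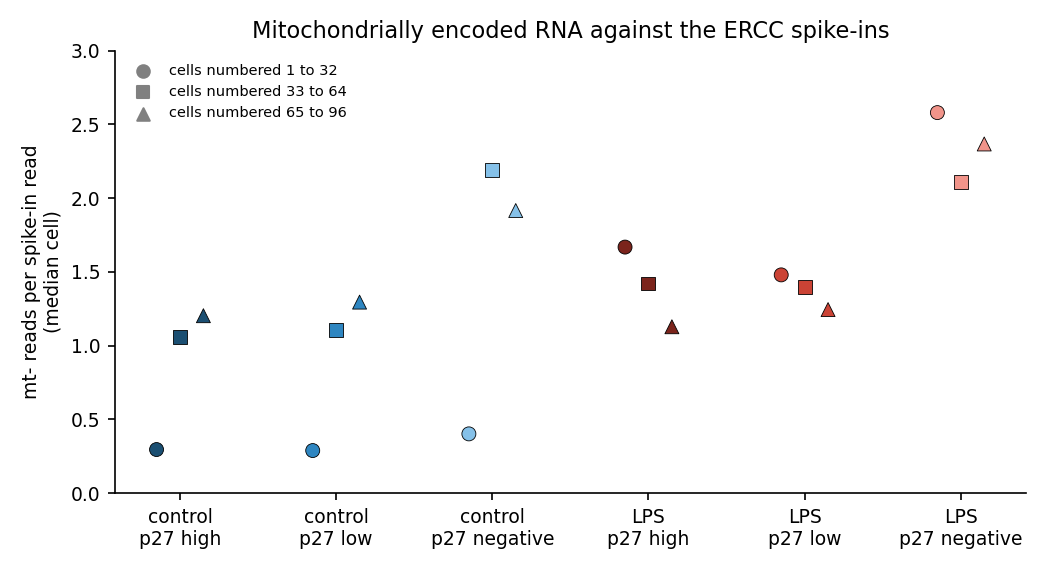
mt- reads per ERCC spike-in read in the median cell of each group and range of cell numbers (circles 1 to 32, squares 33 to 64, triangles 65 to 96). Control cells numbered 1 to 32 lie between 0.289 and 0.402, below every other point, and p27 negative cells lie above p27 high cells of the same treatment and range.

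Within groups the mt- share was tied to depth in some classes. Its Spearman correlation with gene reads across cells was -0.47, -0.26 and -0.24 in control cells, against -0.34, 0.077 and -0.060 under LPS, given as a description since the cells of a group share plate and preparation. Among the mt- RNAs, mt-Rnr1 and mt-Rnr2 varied together most, with a median correlation over the groups of 0.65 (0.55 to 0.75). mt-Nd5 and mt-Nd6, whose ends overlap on opposite strands, followed with 0.62 (0.50 to 0.65), and mt-Nd1 and mt-Cytb with 0.39. mt-Rnr1 and mt-Nd1, which lie on either side of mt-Rnr2, had 0.12 (-0.013 to 0.31).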

How the data were processed

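RNA of 576 single mouse HSCs was measured, 96 in each of 6 groups, and the authors deposited 2 tables of raw read counts per gene, one for control and one for LPS cells, which were used as deposited. The submitters' processing notes name the aligner GSNAP, the counter HTSeq 0.6.0 and the build mm10. Not given in the sources used here are read length, strand setting, annotation release and what was done with reads of several matches. The 5 summary entries that name no gene held 52.7% (not aligned), 6.86% (no feature) and 4.28% (ambiguous) of all reads, and they and the 92 ERCC entries were left out of totals. No cells were identical. Symbols, coordinates and sequences came from GENCODE M21 (45143 of 46078 genes named), and coordinates are 1-based.

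Reads of the kept cells were summed per group and divided by the summed gene reads (CPM). A log2 fold is the difference of log2(CPM + 1), on genes with at least 1 CPM in the higher group, and a call is a difference of 2-fold or more. No doublets were removed and no clusters were made. With 1 sample per group no test was run. Poisson and Clopper-Pearson intervals (95%) cover counting error only. The computation was tested on simulated data with Python 3.11.15, and TMM factors (0.931 to 1.08) came from edgeR 4.0.16. All mt- mRNAs and rRNAs are named, with the 3 tRNAs of most reads and, of each other list, at most the 4 members with the largest fold among those with at least 10 CPM in control p27 high against negative cells and at most 2 in any other comparison, and Lars2. Chromosome copies were named by sequence match. The members, lists and ranges of cell numbers were chosen with earlier results of these data known, and the minimum of 100 CPM, the ratios within ranges and TMM and spike-in values of single genes were added after seeing the data.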

Additional observations from a re-analysis of the deposited data

Results flagged for a closer look

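A control p27 negative cell (number 13 in the labels) left out by the limit on mt- reads had 97.9% of its 413151 gene reads in mt- genes, above the 26% of the highest cell kept. It had 2375 detected genes and 180599 spike-in reads. Of its mt- reads 59% were mt-Rnr2, 12.6% mt-Co1 and 9.90% mt-Cytb, while mt-Co2 had 44 reads and mt-Nd4l 3.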

How the results depend on the processing

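The log2 folds of the mt- total are given here in one order, high against negative, high against low and low against negative p27 classes in control, then the same in LPS cells, then LPS against control in the high, low and negative classes. With the mean over cells they were 0.040, 0.082, -0.042, 0.11, 0.055, 0.057, -0.12, -0.10 and -0.20. With the median over cells they were 0.14, 0.15, -0.010, 0.10, 0.058, 0.046, -0.16, -0.071 and -0.13. Taken per reads of other genes they were 0.014, 0.10, -0.089, 0.068, 0.018, 0.050, -0.12, -0.034 and -0.17. Taken per ERCC read they were -0.49, 0.027, -0.52, -0.74, 0.12, -0.86, 1.34, 1.25 and 1.59. Under TMM they were -0.064, 0.054, -0.12, -0.018, -0.053, 0.035, 0.020, 0.13 and -0.026. In all cells with a gene read they were -0.20, 0.10, -0.30, 0.064, 0.016, 0.049, -0.11, -0.031 and -0.38. In cells with at least 200000 gene reads they were -0.032, 0.087, -0.12, 0.044, -0.0036, 0.048, -0.081, 0.010 and -0.16. In cells with at most 10% mt- reads they were 0.064, 0.12, -0.054, 0.065, 0.026, 0.039, -0.11, -0.021 and -0.11. Calculated without the cell with the most mt- reads they were 0.067, 0.10, -0.034, 0.088, 0.043, 0.046, -0.10, -0.044 and -0.12. For the mRNAs only they were 0.13, 0.18, -0.051, 0.18, 0.12, 0.061, -0.16, -0.10 and -0.21. In cells numbered 1 to 32 they were 0.16, 0.00016, 0.16, 0.11, -0.038, 0.15, -0.11, -0.072 and -0.061. In cells numbered 33 to 64 they were -0.22, 0.21, -0.43, 0.034, 0.033, 0.0010, -0.16, 0.020 and -0.41. In cells numbered 65 to 96 they were 0.12, 0.089, 0.036, 0.064, 0.080, -0.016, -0.046, -0.037 and 0.015. A minimum of 1000 detected genes per cell gave the same 9 values as the kept cells without it, so it was no separate check. No total of clear sign is read from values this near 0. Of 81 folds of the 9 abundant mt- RNAs, 13 changed sign under TMM, 49 per ERCC read, 16 per mt- read, 14 with the mean over cells, 1 per read of other genes and 0 with 0.1 or 5 CPM added. No paired analysis was possible because each group is 1 sample and no test was run. Values within ranges of cell numbers do not replace it, since the labels pair no cells and the ranges are not replicates. With 1 sample per group, the spread between animals is unknown; mRNAs with near-identical nuclear copies and tRNAs are limited by their few reads.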
